A study of Mus musculus with 9 samples.

Results

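Cytochrome P450 families 1 to 4 are the haem enzymes that oxidise foreign chemicals, steroids, fatty acids and eicosanoids. Their members here were all rows of the deposited table whose gene symbol begins with Cyp, a family number from 1 to 4, a subfamily letter and a digit. This rule took 82 of 32761 rows: 3 in family 1, 49 in family 2, 9 in family 3 and 21 in family 4. By GENCODE release M21, in which all 82 gene IDs were found, 72 are protein coding, 9 are pseudogenes and 1 is an antisense transcript.

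RNA of mouse liver tumours harvested on day 14 was sequenced in 9 libraries. The tumours were grown from Hepa1-6-luc, a luciferase-marked mouse hepatoma line placed in the liver. Every group carried the same tumour line. There were 3 groups of 3 libraries, and for Control the labels name no agent. Whether each library came from a separate mouse is not stated in the labels. Mice of the free-drug group, labelled Lenvatinib+anti-PD1, received free lenvatinib, an inhibitor of VEGF and FGF receptor kinases, and an antibody against PD1, a receptor that restrains T cells. Mice of the nanocluster group, labelled Co+Len@OVA+anti-PD1, received that antibody and a drug-loaded nanocluster; the meaning of Co in its name is not stated. Antibody doses of 50 µg came at intervals of 4 days, and tail vein doses of the nanocluster (2 mg/mL) or of matched free lenvatinib at intervals of 3 days. No sequenced group received lenvatinib or the antibody alone, so their parts in a difference from Control cannot be told apart. Strain, sex and age of the mice do not appear in the labels.

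Liver P450 enzymes sit in the endoplasmic reticulum and take electrons from NADPH through P450 oxidoreductase. Most members of families 1 to 3 are made by hepatocytes, many of them in the cells around the central vein, and are induced through the receptors AhR, CAR, PXR and PPAR-alpha. Others work outside hepatocytes, in epithelia, leukocytes or stroma. Liver tumours commonly lose the hepatocyte enzymes as they lose differentiation.

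The level and the response of these genes to ligands are set largely at their promoters. The 250 bases before the transcription start are shown for 5 members described below, from RefSeq on GRCm38.p6, written 5′ to 3′ on the gene's own strand. Capitals mark 3 motifs, each searched on both strands. TATAAA is the core promoter element that positions the polymerase. TTGCATAA is a core bound by factors of the bZIP class such as C/EBP. GCGTG is the core of the element that the activated AhR binds. The windows were chr7:26835089-26835338 (plus strand) for Cyp2a5, chr7:26306942-26307191 (plus) for Cyp2a4, chr9:57683656-57683905 (minus) for Cyp1a2, chr9:57697363-57697612 (plus) for Cyp1a1 and chr7:140763569-140763818 (plus) for Cyp2e1.
Cyp2a5: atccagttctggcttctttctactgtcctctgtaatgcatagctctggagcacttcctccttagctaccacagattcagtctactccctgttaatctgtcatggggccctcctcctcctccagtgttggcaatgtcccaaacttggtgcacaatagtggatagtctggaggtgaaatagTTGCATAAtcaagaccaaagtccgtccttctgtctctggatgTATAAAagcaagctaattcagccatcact
Cyp2a4: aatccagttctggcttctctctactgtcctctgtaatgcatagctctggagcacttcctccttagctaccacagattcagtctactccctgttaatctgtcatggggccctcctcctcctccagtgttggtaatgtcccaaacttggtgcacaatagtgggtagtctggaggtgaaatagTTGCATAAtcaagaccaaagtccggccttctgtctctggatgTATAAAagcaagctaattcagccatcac
Cyp1a2: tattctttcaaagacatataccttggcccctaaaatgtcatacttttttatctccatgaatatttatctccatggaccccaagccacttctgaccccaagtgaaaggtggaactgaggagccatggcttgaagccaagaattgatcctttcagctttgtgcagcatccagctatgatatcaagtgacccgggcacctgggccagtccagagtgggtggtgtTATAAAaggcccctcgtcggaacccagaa
Cyp1a1: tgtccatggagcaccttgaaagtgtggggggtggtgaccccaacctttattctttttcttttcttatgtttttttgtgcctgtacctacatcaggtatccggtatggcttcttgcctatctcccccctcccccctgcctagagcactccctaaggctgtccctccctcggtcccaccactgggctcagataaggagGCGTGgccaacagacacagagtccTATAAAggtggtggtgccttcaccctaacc
Cyp2e1: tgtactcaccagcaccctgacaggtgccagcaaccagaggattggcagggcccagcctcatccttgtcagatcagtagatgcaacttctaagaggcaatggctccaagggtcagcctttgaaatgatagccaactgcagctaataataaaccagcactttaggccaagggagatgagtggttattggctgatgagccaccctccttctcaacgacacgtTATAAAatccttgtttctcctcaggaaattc

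All 5 windows held TATAAA, beginning 28 to 31 bases before the start. Cyp2a5 and Cyp2a4 were the same at 245 of 249 aligned bases (98.4%), with TTGCATAA 71 and 70 bases before their starts. GCGTG stood in the Cyp1a1 window, 54 bases before the start, and not in that of its neighbour Cyp1a2, which held TATAAA only. Promoters were given for 60 of the 82 members. TATAAA was in 25 of the 60 (41.7%), against 13.0% of 27025 genes in windows of the same length. TTGCATAA was in 4 of the 60 (6.67%, against 0.744%) and GCGTG in 12 (20.0%, against 28.2%). A match is only a run of letters, and no binding was measured.

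Levels are FPKM, a fragment count divided by transcript length and library total, so levels of different genes can be compared per length. Library totals ran from 331600 to 372800 FPKM; fragment depth is unknown, and between 51 and 70 members were above 0 in a library. A gene was tested when its mean over the 9 libraries reached 0.5 FPKM, which held for 45 members and 15353 genes in all. Of those 45, the group mean reached 0.5 FPKM for 44 in Control, 45 in the free-drug group and 23 in the nanocluster group, so many passed only through the other groups, and counts over the 45 are not counts over all members. By family, 3 of 3, 26 of 49, 4 of 9 and 12 of 21 members were tested. Of the 37 others, 30 reached 0.5 FPKM in no group mean and 7 in at least 1. Differences are on the log2(FPKM + 0.5) scale with a standard error, tested with limma; "rose" and "fell" mean a Benjamini-Hochberg adjusted p under 0.05 over all genes tested. This scale understates the change of low genes.

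The libraries were not alike within groups, and that touches the results. Hepatocyte genes were higher in Control 1 than in Control 2: the median of 32 such genes without any P450 (such as Alb, Ttr and Cps1) was 42.7, 14.0 and 22.7 FPKM in Controls 1 to 3. Whether this RNA came from hepatocytes or from the hepatoma cells was not tested. It was 38.8, 37.8 and 40.0 FPKM in the free-drug group and 1.59, 2.43 and 2.77 FPKM in the nanocluster group. Of 5 tested hepatoma genes, 2 were lower in the nanocluster group than in both others, Afp and Igf2bp3. The 3 others did not pass, and 2 of the 5 had nanocluster levels apart upward from Control, so the list was split. Afp was at 439, 368 and 404 FPKM in Control, 379, 339 and 385 FPKM in the free-drug group and 239, 232.5 and 239.7 FPKM in the nanocluster group, where it fell by 0.76 against Control. Its part in the P450 differences was not tested. In Control, library 3 lay between libraries 1 and 2 for 39 of the 45 tested members (86.7%, against 66.5% of all genes tested). In the free-drug group it did so for 20 (44.4%, against 45.2%) and in the nanocluster group for 19 (42.2%, against 65.4%). The labels do not say that the 3 libraries of a group came from separate mice; if library 3 is not independent of the other pair, the p-values are too small. Counts from libraries 1 and 2 alone, with 3 residual degrees of freedom, are therefore given beside each main count. They still take libraries 1 and 2 of a group as independent, which the labels do not state either. Skeletal muscle genes had a median of 2.76, 401 and 159 FPKM in free-drug 1 to 3 and at most 4.14 FPKM elsewhere. Members high in the free-drug group, such as Cyp2a5 and Cyp1a2, were as high in library 1 as in libraries 2 and 3. The part of muscle or other carried tissue in the P450 values was not tested.

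The summed level of all 82 members was 631, 279 and 419 FPKM in Control, 949.5, 918 and 971 FPKM in the free-drug group and 189, 199 and 196 FPKM in the nanocluster group. The groups did not overlap. Their make-up differed as well. Cyp2e1, which oxidises ethanol and paracetamol, held 32.4%, 8.88% and 21.7% of the sum in Control and 25.5%, 27.4% and 26.2% in the free-drug group. Cyp2a5, the coumarin 7-hydroxylase of mouse liver, held a further 14.2%, 13.3% and 13.9% in the free-drug group. In the nanocluster group the leading gene was Cyp2s1 or Cyp1a1: Cyp2s1, an epithelial P450 found in many tissues, held 21.4%, 20.5% and 20.4% of a much smaller sum.

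**Figure D1:**
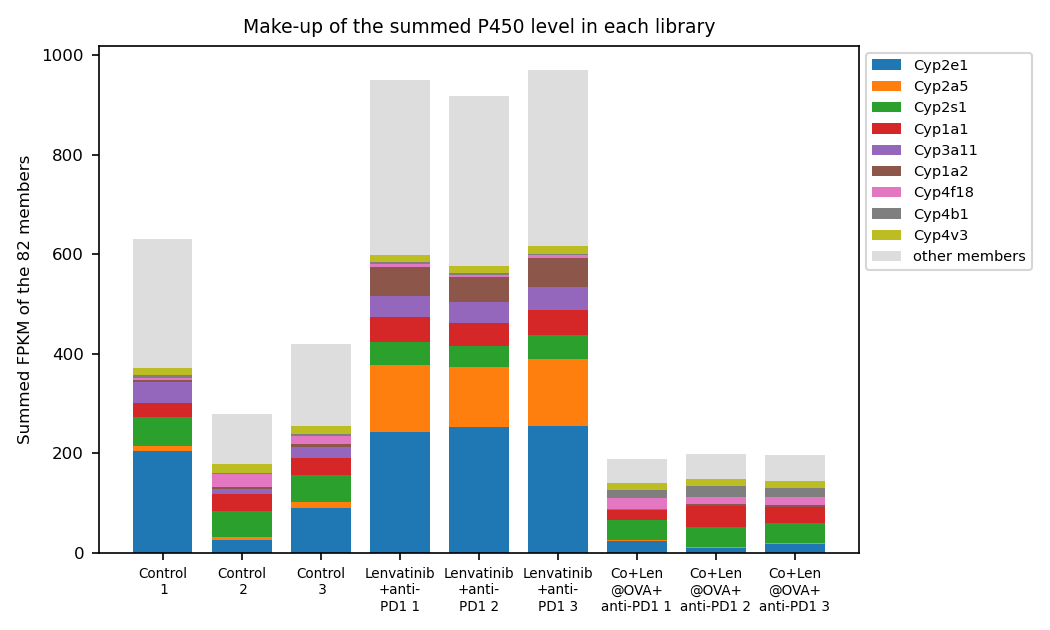
Summed FPKM of the 82 members in each of the 9 libraries (bars, y axis in FPKM), divided into 9 abundant genes and all other members. The free-drug bars stand at 918 to 971 FPKM, with Cyp2a5 and Cyp1a2 as visible blocks, and the nanocluster bars at 189 to 199 FPKM.

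Against Control, 21 of the 45 tested members rose in the free-drug group, 5 fell and 19 did not pass, where 13.8% of all genes tested rose and 9.87% fell. The members' median difference was 0.99 on the log2 scale, beside 0.05 over all genes. Levels were apart, with no overlap between the groups, for 28 members upward (26.1% of all genes) and 5 downward (17.4%). Among the 32 hepatocyte genes without P450, 11 rose and the others did not pass (median 0.79). The count of 21 was 11 without free-drug 3 and 13 without free-drug 2. It was 14 without free-drug 1 or Control 3, and 29 without Control 1. With libraries 1 and 2 alone it was 1, Cyp2a5 (0.215% of all genes rose), with 18 at an unadjusted p under 0.05 (9.91% of all genes). The count of 5 that fell was 2 without free-drug 1 or 3, 1 without free-drug 2 or Control 3 and 7 without Control 1. With libraries 1 and 2 it was 0 by limma (0.130% of all genes fell), with 3 at an unadjusted p under 0.05 (6.77%).

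Against Control, 1 member rose in the nanocluster group, 32 fell and 12 did not pass, where 20.9% of all genes tested rose and 12.7% fell. The members' median difference was -1.20, beside 0.13 over all genes. Levels were apart for 2 members upward (32.4% of all genes) and 34 downward (17.3%). Of the 32 hepatocyte genes, 31 fell (median -3.11). In bulk tumours, fewer hepatocytes and less RNA of these genes per cell, in hepatocytes or tumour cells, cannot be told apart. With libraries 1 and 2 alone 0 members rose and 1 fell, Cyp2d9, where 0.111% of all genes rose and 0.410% fell. At an unadjusted p under 0.05 by limma the counts were 1 and 25, against 13.6% and 8.40% of all genes. Median-of-ratios scaling moved the median over all genes from 0.13 to 0.02, and the split over all genes from 3209 higher and 1946 lower to 2216 and 2699; for the members it gave 1 and 34.

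Between the treatments, 4 members were higher in the nanocluster group than in the free-drug group, 34 were lower and 7 did not pass, where 17.3% of all genes tested were higher and 12% lower. The members' median difference was -2.78, beside 0.07 over all genes. Levels were apart for 4 upward (34.3% of all genes) and 39 downward (20.4%). Of the 32 hepatocyte genes 31 fell, with a median of -3.93. With libraries 1 and 2 alone 0 were higher and 17 lower, all of the latter among the 34, where 0.443% of all genes were higher and 1.93% lower. At an unadjusted p under 0.05 by limma the counts were 3 and 32, against 10.4% and 8.28% of all genes. Median-of-ratios scaling moved the split over all genes from 2657 higher and 1850 lower to 2084 and 2334; for the members it gave 3 and 35. All 3 comparisons share groups in pairs and are not independent of each other. Counts for subfamilies and gene lists below are to be read beside the shares over all genes given for each comparison.

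**Figure D2:**
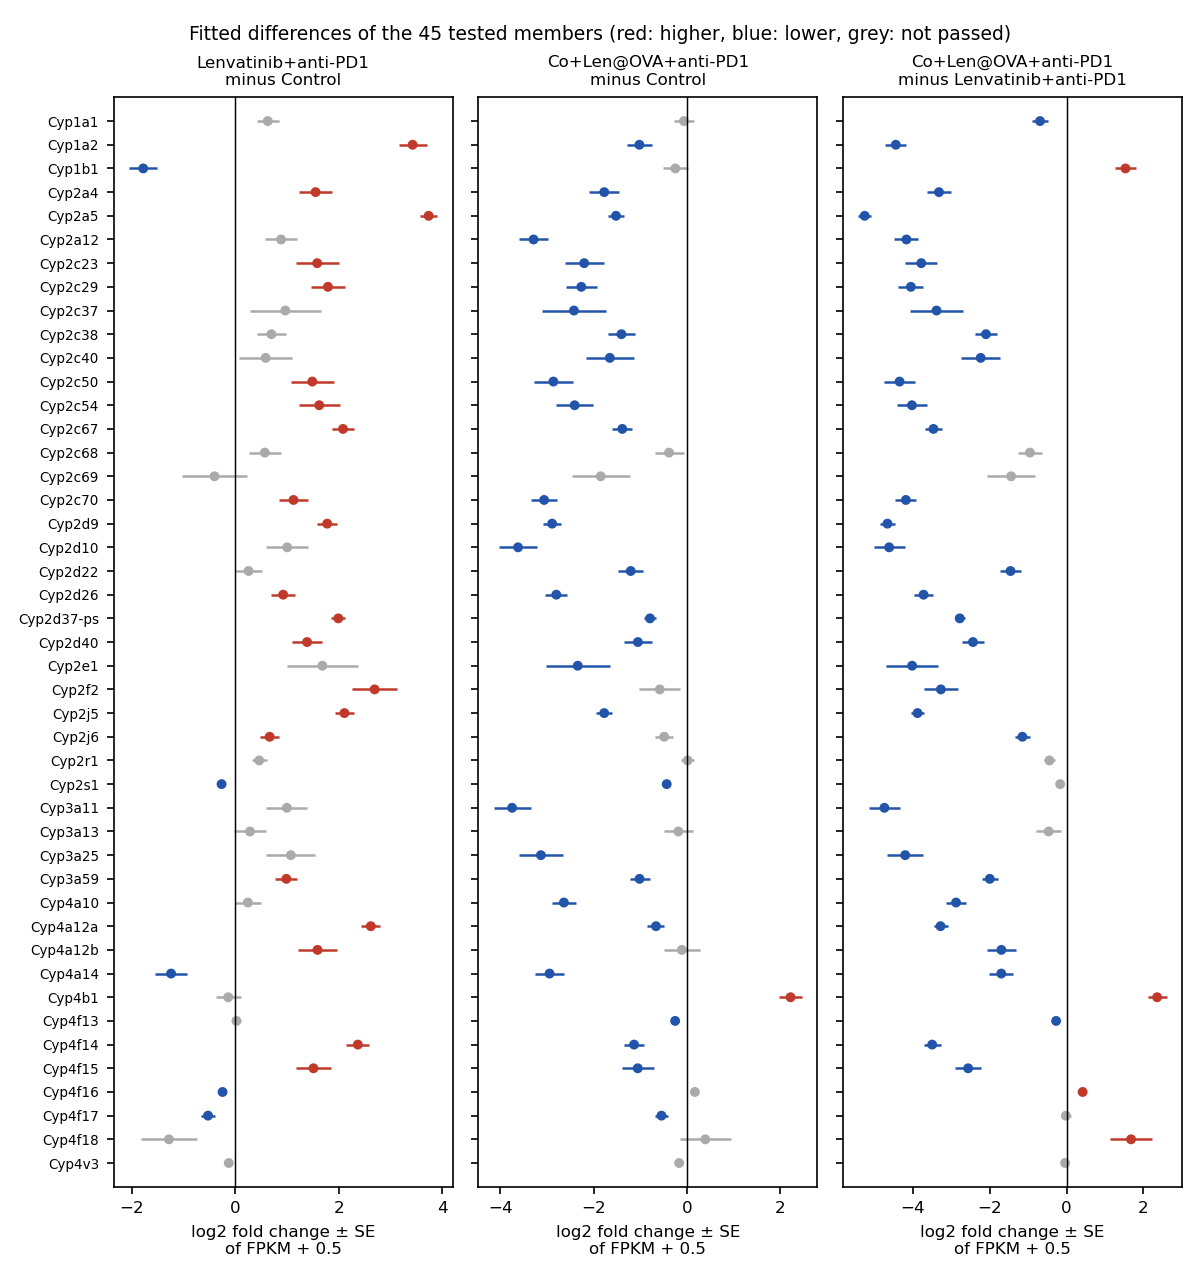
Fitted log2 differences of FPKM + 0.5 (points) with their standard errors (lines) for the 45 tested members, ordered by subfamily, in the 3 comparisons; red points were higher and blue points lower at an adjusted p under 0.05. Cyp2a5 and Cyp1a2 stand farthest right in the first panel at 3.74 and 3.43, and in the second panel Cyp4b1 is the only red point, at 2.22.

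**Figure D3:**
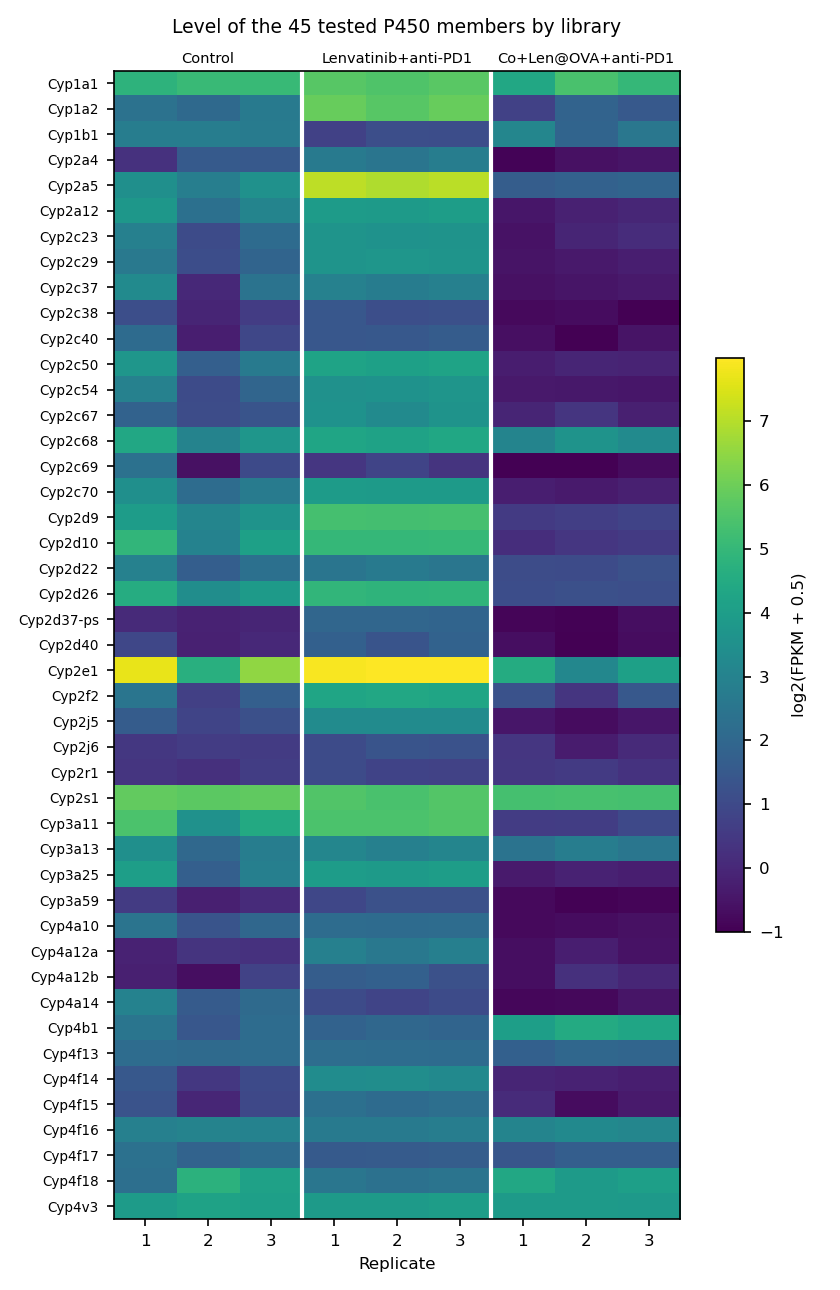
Colour gives log2(FPKM + 0.5) of the 45 tested members (rows, by subfamily) in the 9 libraries (columns, 3 replicates per group). Members of Cyp2c other than Cyp2c68, of Cyp2d, and of Cyp3a other than Cyp3a13 are dark in the nanocluster group, while Cyp1a1, Cyp2s1 and Cyp4v3 keep a similar colour in all 9 libraries.

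Family 1 holds the 3 classical targets of the aryl hydrocarbon receptor. Cyp1a2, the hepatocyte enzyme for caffeine and aromatic amines, was at 4.76, 3.75 and 5.84 FPKM in Control, 58.9, 49.6 and 58.6 FPKM in the free-drug group and 1.17, 3.10 and 2.34 FPKM in the nanocluster group. The 3 groups did not overlap. The gene rose by 3.43 ± 0.27 (SE) in the free-drug group (adjusted p = 0.000222) and fell by 1.02 ± 0.27 in the nanocluster group (adjusted p = 0.0231). The latter call was lost without nanocluster 3 or Control 3 (adjusted p = 0.0541 and 0.0746).

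Cyp1a1, the inducible hydroxylase of polycyclic hydrocarbons, differed far less between the groups. It was at 27.8, 33.5 and 33.0 FPKM in Control, 49.7, 45.7 and 50.9 FPKM in the free-drug group and 20.7, 41.6 and 31.1 FPKM in the nanocluster group. Every free-drug library was above the others, but the difference of 0.63 ± 0.22 from Control did not pass in the fit of all 9 libraries (adjusted p = 0.0714). That SE draws on the spread of all 3 groups, which was widest in the nanocluster group. By limma the adjusted p was 0.00956 in a fit of these 2 groups alone, 0.0124 without nanocluster 1 and 0.0254 without nanocluster 2. Cyp1a1 was 0.69 ± 0.22 lower in the nanocluster group than in the free-drug group (adjusted p = 0.0459). That call was lost in a fit of these 2 groups alone (limma adjusted p = 0.0669). It was also lost in 7 of the 9 fits that left out 1 library (adjusted p up to 0.124), all but those without nanocluster 2 and Control 1.

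Cyp1b1, which hydroxylates oestrogens and is made mostly outside hepatocytes, went the other way. Its levels were 6.44, 6.53 and 6.22 FPKM in Control, 1.17, 1.74 and 1.66 FPKM in the free-drug group and 8.30, 3.25 and 5.43 FPKM in the nanocluster group. All free-drug libraries were below all others. The gene fell by 1.78 ± 0.27 in the free-drug group (adjusted p = 0.00350) and was 1.53 ± 0.27 higher in the nanocluster group than in the free-drug group (adjusted p = 0.00533). The nanocluster group against Control gave -0.25 ± 0.27 (adjusted p = 0.505), and 0.07 without nanocluster 2.

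The genes of the AhR chain itself were lower or did not pass in the free-drug group. Ahr, the receptor, stood at 13.5 to 15.6 FPKM in Control, 10.9 to 12.7 FPKM in the free-drug group and 15.7 to 16.3 FPKM in the nanocluster group, and fell by 0.29 in the free-drug group (adjusted p = 0.029). Arnt, its partner, fell by 0.56 in the free-drug group and by 0.37 in the nanocluster group. Among 4 tested AhR targets that are no P450, 1 fell in the free-drug group and the others did not pass. Tiparp, an AhR-induced enzyme that restrains the receptor, was at 21.5, 12.5 and 15.9 FPKM in Control and 5.93, 6.45 and 6.58 FPKM in the free-drug group. The 3 others, Nqo1, Ugt1a6a and Aldh3a1, differed by 0.29, 0.31 and 0.92 and did not pass.

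In subfamily Cyp2a, Cyp2a5 had the largest rise of any tested member in the free-drug group. It was at 10.7, 6.78 and 11.2 FPKM in Control, 135, 122 and 134.5 FPKM in the free-drug group and 2.63, 2.96 and 3.22 FPKM in the nanocluster group. The 3 groups did not overlap, and Controls 1 and 2 differed by only 1.57-fold. It rose by 3.74 ± 0.17 in the free-drug group, 13.3-fold (adjusted p = 2.10e-05, and 0.019 with libraries 1 and 2 alone). It fell by 1.52 ± 0.17 in the nanocluster group, and between the treatments it was 38.2-fold lower in the nanocluster group.

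Its neighbour in sequence Cyp2a4, a steroid 15-alpha-hydroxylase that is higher in female mouse liver, was at 0.709, 2.43 and 2.34 FPKM in Control. It was at 5.80, 5.16 and 6.59 FPKM in the free-drug group and 0.0335, 0.168 and 0.209 FPKM in the nanocluster group. The rise of 1.55 ± 0.32 in the free-drug group was 2.93-fold, beside 13.3-fold for Cyp2a5 with its near-identical window, and the difference between the 2 genes was not tested. Without free-drug 3 the call was lost (adjusted p = 0.0507). Between their transcripts, 4.22% of the 150-base words of Cyp2a4 were also in Cyp2a5, and 3.59% of those of Cyp2a5 in Cyp2a4. Fragments of such words could be placed with either gene. In the free-drug group Cyp2a5 averaged 130 FPKM and Cyp2a4 5.85 FPKM, so a share that is small for Cyp2a5 need not be small for Cyp2a4. How much of the Cyp2a4 value or rise came from Cyp2a5 fragments was not tested. Cyp2a12, another liver member, gave 0.88 ± 0.31 in the free-drug group (adjusted p = 0.0753, and 0.00509 without Control 1) and fell by 3.28 ± 0.31 in the nanocluster group.

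**Figure D4:**
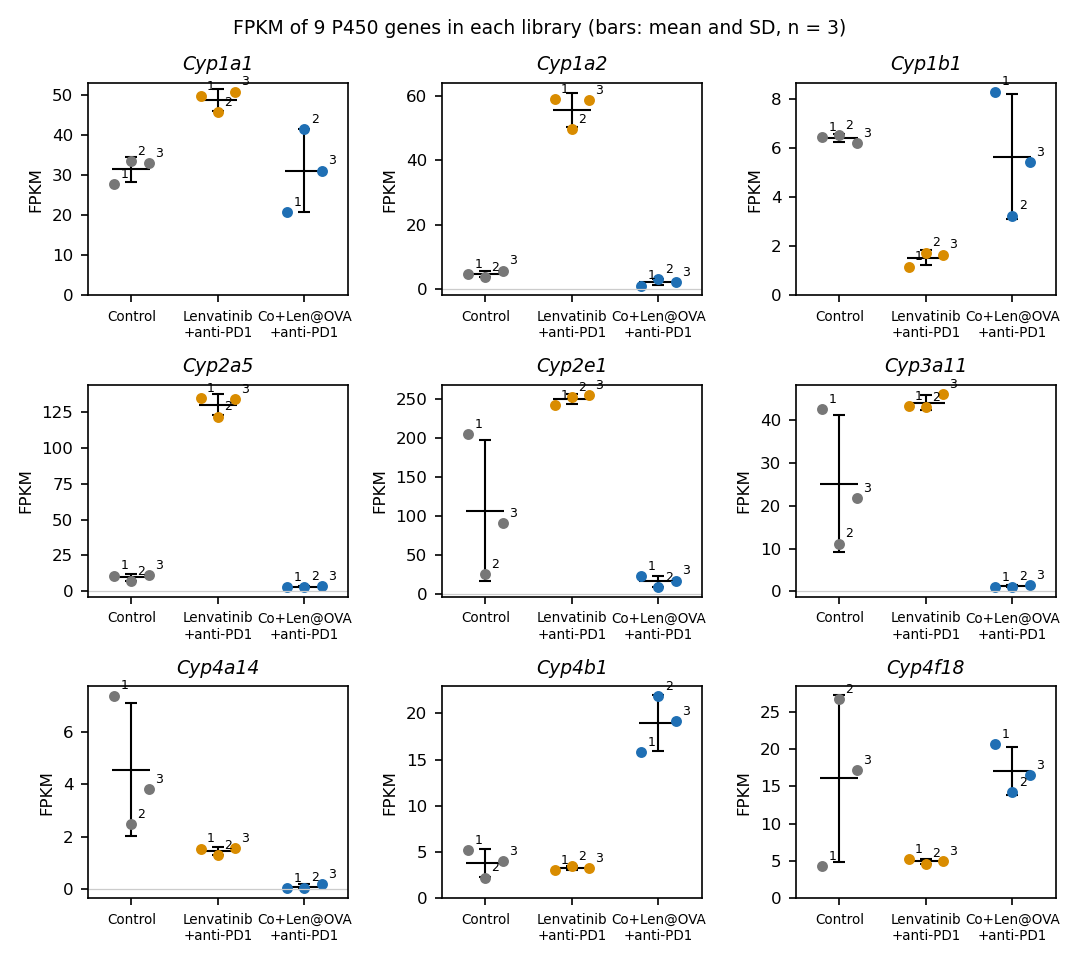
FPKM of 9 members in each library (points, labelled by replicate number), with the mean and SD of each group of 3 (black bars); each panel has its own linear y axis that includes 0. Cyp2a5 and Cyp1a2 are tightly grouped and high in the free-drug group, Cyp1b1 is low there, Cyp4b1 is high in the nanocluster group, and the Control points of Cyp2e1, Cyp3a11 and Cyp4f18 are widely spread.

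Cyp2e1 had the highest mean over the 9 libraries, though Cyp2s1 was above it in Control 2 and in the nanocluster group. Its Control libraries disagreed. They held 204, 24.7 and 90.8 FPKM, against 242, 252 and 254 FPKM in the free-drug group and 22.9, 8.49 and 16.9 FPKM in the nanocluster group. Every free-drug library was above every Control, but Control 1 and 2 lay 8.26-fold apart, and the difference of 1.68 ± 0.68 did not pass (adjusted p = 0.111; 2.38 with adjusted p = 0.0174 without Control 1). It fell by 2.34 ± 0.68 in the nanocluster group (adjusted p = 0.0331), a call lost in 7 of the 9 fits that left out 1 library (adjusted p 0.0501 to 0.0929), all but those without nanocluster 1 and Control 2. It was 4.02 ± 0.68 lower in the nanocluster group than in the free-drug group (adjusted p = 0.00421).

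The Cyp2c subfamily makes hydroxylases of drugs, arachidonic acid and bile acids. Of its 11 tested members, 6 rose in the free-drug group and 5 did not pass, while in the nanocluster group 9 fell from Control and 9 were lower than in the free-drug group. Cyp2c29, which responds to CAR, was at 5.77, 1.66 and 3.21 FPKM in Control, 11.9, 12.8 and 12.1 FPKM in the free-drug group and 0.190, 0.275 and 0.350 FPKM in the nanocluster group. The groups did not overlap. It rose by 1.79 ± 0.33 and fell by 2.26 ± 0.33 against Control. Cyp2c70, the mouse enzyme that makes muricholic acids, rose by 1.12 ± 0.27 in the free-drug group and fell by 3.06 ± 0.27 in the nanocluster group. The rise was lost without any 1 free-drug library or Control 3 (adjusted p 0.0585 to 0.0689).

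Cyp2c68 did not share the low levels of its subfamily in the nanocluster group. It was at 20.6, 7.59 and 12.6 FPKM in Control, 19.1, 17.5 and 20.3 FPKM in the free-drug group and 7.82, 11.8 and 9.32 FPKM in the nanocluster group, where the other 10 tested Cyp2c members were under 1 FPKM in every library. The nanocluster group overlapped Control, and no comparison passed: the nanocluster group against Control gave -0.38 ± 0.31 (adjusted p = 0.358, and 0.0418 at -0.73 without Control 2). Against the free-drug group it gave -0.95 ± 0.31 (adjusted p = 0.0510, and 0.00830 and 0.0131 without Control 1 and Control 2). The free-drug group against Control gave 0.57, and 0.91 without Control 1 (adjusted p = 0.0206). Of its 150-base words 8.83% were shared with Cyp2c40, itself at 0.196 FPKM or less in the nanocluster group.

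The Cyp2d subfamily oxidises basic drugs and steroids. Of 6 tested members, 4 rose in the free-drug group and all 6 fell in the nanocluster group. Cyp2d9, a testosterone 16-alpha-hydroxylase that is higher in male mouse liver, was at 15.0, 7.98 and 11.9 FPKM in Control, 39.8, 39.3 and 40.2 FPKM in the free-drug group and 0.937, 1.11 and 1.24 FPKM in the nanocluster group. The groups were far apart. It rose by 1.78 ± 0.19 and fell by 2.89 ± 0.19 (adjusted p = 8.19e-05 for the fall). With libraries 1 and 2 alone the fall kept its call (adjusted p = 0.0428) and the rise lost it (1.80, adjusted p = 0.103). Cyp2d26 fell by 2.80 ± 0.24 in the nanocluster group. Its rise of 0.92 ± 0.24 in the free-drug group was lost without any 1 free-drug library or Control 3. The pseudogene Cyp2d37-ps rose by 1.99 ± 0.13 and fell by 0.79 ± 0.13; its group mean reached 0.5 FPKM in the free-drug group alone.

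Cyp2f2, known for activating naphthalene in airway club cells and also made in liver, rose by 2.69 ± 0.44 in the free-drug group. Its levels were 5.12, 1.13 and 2.77 FPKM in Control, 19.1, 20.4 and 19.1 FPKM in the free-drug group and 1.90, 0.821 and 2.31 FPKM in the nanocluster group. The nanocluster group overlapped Control (-0.58 ± 0.44, adjusted p = 0.324; 0.0489 at -1.05 without Control 2). The club cell marker Scgb1a1 was at 0.19 FPKM or less in all libraries. It is 1 of 6 airway and corneal epithelium genes found, of which Sftpb and Sftpc were at 0.158 FPKM or less. The 3 that were tested, Krt5, Krt12 and Krt14, had a median difference of 2.33 in the free-drug group and did not pass. The part of such epithelium in the Cyp2f2 values was not tested. Cyp2j5, an arachidonic acid epoxygenase of kidney and liver, was at 2.54, 1.32 and 1.81 FPKM in Control, 9.60, 9.55 and 9.60 FPKM in the free-drug group and 0.221, 0.117 and 0.222 FPKM in the nanocluster group. It rose by 2.11 ± 0.18 and fell by 1.77 ± 0.18.

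Family 3 members are targets of the pregnane X receptor and metabolise a wide range of drugs. Cyp3a11, the main one in mouse liver, was at 42.7, 11.2 and 21.8 FPKM in Control, 43.3, 43.2 and 46.2 FPKM in the free-drug group and 1.02, 1.07 and 1.46 FPKM in the nanocluster group. The free-drug group was barely above Control 1 and well above Control 2. The difference of 1.00 ± 0.40 did not pass (adjusted p = 0.105; 0.00468 at 1.47 without Control 1), and in the nanocluster group the gene fell by 3.74 ± 0.40 (adjusted p = 0.000588). Of the 4 tested members of the family, 1 rose in the free-drug group and 3 fell in the nanocluster group. Cyp3a13, which is also made in the gut, passed in no comparison: it was at 10.7, 3.56 and 6.49 FPKM in Control, 7.15 to 8.28 FPKM in the free-drug group and 4.92 to 6.49 FPKM in the nanocluster group.

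In family 4 the Cyp4a members are fatty acid omega-hydroxylases, and Cyp4a10 and Cyp4a14 are textbook targets of PPAR-alpha. Cyp4a14 fell in both treated groups: it was at 7.37, 2.47 and 3.82 FPKM in Control, 1.55, 1.29 and 1.57 FPKM in the free-drug group and 0.0574, 0.0669 and 0.204 FPKM in the nanocluster group. The 3 groups did not overlap. The fall of 1.24 ± 0.31 in the free-drug group (adjusted p = 0.0243) was lost without any 1 free-drug library or Control 3 (0.0588 to 0.0755), and that in the nanocluster group was 2.94 ± 0.31. Its neighbour Cyp4a10 was at 5.05, 2.01 and 3.51 FPKM in Control and 3.93 to 4.08 FPKM in the free-drug group (0.24 ± 0.25, adjusted p = 0.517; -0.06 without Control 2). It fell by 2.63 ± 0.25 in the nanocluster group.

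Ppara, which encodes the receptor, fell by 0.97 in the free-drug group and by 1.55 in the nanocluster group. Of 10 PPAR-alpha targets that are no P450, 6 rose in the free-drug group and 5 fell in the nanocluster group, and the others did not pass. The hormone gene Fgf21 was at 0.201, 0.136 and 0.242 FPKM in Control and 2.42, 2.67 and 2.92 FPKM in the free-drug group.

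Cyp4a12a, which makes the vasoconstrictor 20-HETE and is higher in male mice, rose while Cyp4a14 fell. It was at 0.418, 0.792 and 0.728 FPKM in Control, 7.03, 5.51 and 6.95 FPKM in the free-drug group and 0.133, 0.352 and 0.180 FPKM in the nanocluster group. It rose by 2.62 ± 0.18 (adjusted p = 0.000108). The fall of 0.66 ± 0.18 in the nanocluster group (adjusted p = 0.0262) was lost without nanocluster 1, nanocluster 3, Control 2 or Control 3 (0.0587 to 0.0839). Of its 150-base words 25.6% were shared with Cyp4a12b, so the division of fragments between this pair is uncertain.

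Steroid-hydroxylating members of mouse liver include sex-biased ones. All 3 male-biased members tested rose in the free-drug group, and 2 of 3 fell in the nanocluster group, beside 21 and 32 of all 45 tested members. Of 9 female-biased members listed, 3 were tested, of which 1 rose in the free-drug group and 2 fell in the nanocluster group. The female-biased pair Cyp3a41a and Cyp3a41b share about 82.7% of their words and were too low to test. Xist, expressed from an inactive X, and the Y-linked Ddx3y were both above 0 in all libraries, at 22.9 to 32.3 and 1.64 to 3.85 FPKM.

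Of 9 members known to be pericentral in liver, 6 rose in the free-drug group, and all 9 fell in the nanocluster group and were lower than in the free-drug group. Of 10 pericentral genes that are no P450, such as Glul, 6 rose in the free-drug group, and 2 rose and 4 fell in the nanocluster group. Of 9 periportal genes, 2 fell in the free-drug group and 8 in the nanocluster group. The others on both lists did not pass. The pericentral P450 list was chosen with results known, and no test compared these lists.

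The Cyp4f members hydroxylate leukotrienes and vitamins E and K. Cyp4f14, made in liver, was at 2.26, 0.880 and 1.51 FPKM in Control, 9.90, 10.03 and 9.09 FPKM in the free-drug group and 0.457, 0.406 and 0.338 FPKM in the nanocluster group. It rose by 2.37 ± 0.22 and fell by 1.13 ± 0.22. Cyp4f13, Cyp4f16 and Cyp4f17 differed by no more than 0.55 in any comparison. Of their 6 calls, only that of Cyp4f16 between the treatments (0.42 ± 0.07 higher in the nanocluster group) held in all 9 fits that left out 1 library.

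Cyp4f18, which inactivates leukotriene B4 in mouse neutrophils, followed other samples than the liver members. It was at 4.36, 26.7 and 17.2 FPKM in Control, 5.28, 4.66 and 4.95 FPKM in the free-drug group and 20.6, 14.3 and 16.5 FPKM in the nanocluster group. Control 1 was as low as the free-drug group, while Controls 2 and 3 were as high as the nanocluster group. The free-drug group against Control gave -1.28 ± 0.54 (adjusted p = 0.121; -2.01 with adjusted p = 0.000667 without Control 1). It was 1.68 ± 0.54 higher in the nanocluster group than in the free-drug group (adjusted p = 0.0495), a call lost in 7 of the 9 fits that left out 1 library, all but those without Control 1 and Control 2. The median of 8 neutrophil genes was 2.32, 7.46 and 5.88 FPKM in Control, 1.04 to 1.14 FPKM in the free-drug group and 3.88 to 5.12 FPKM in the nanocluster group. Of these 8, 7 fell in the free-drug group and 7 were higher in the nanocluster group than in the free-drug group. The median of 8 macrophage genes was 26.4, 126 and 92.1 FPKM in Control, 34.8 to 37.5 FPKM in the free-drug group and 119 to 137 FPKM in the nanocluster group. The part of these cells in the Cyp4f18 values was not tested.

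Cyp4b1, a lung and epithelial enzyme that activates protoxins, was the only tested member to rise in the nanocluster group. It was at 5.19, 2.25 and 4.05 FPKM in Control, 3.07, 3.48 and 3.27 FPKM in the free-drug group and 15.8, 21.9 and 19.2 FPKM in the nanocluster group. All nanocluster libraries were above all others. It rose by 2.22 ± 0.25, 4.65-fold (adjusted p = 0.000705), and was 2.36 ± 0.25 higher than in the free-drug group. The median of 8 adipocyte genes was 12.3, 1.62 and 6.52 FPKM in nanocluster 1 to 3; Cyp4b1 had the reverse order there. In the free-drug group it was 0.353, 20.0 and 7.42 FPKM, the same order as Cyp4b1. In Control it was 0.408, 0.00998 and 0.401 FPKM, again the same order. Of 7 tested adipocyte genes, 6 were apart upward from Control in the nanocluster group (32.4% of all genes) and 2 in the free-drug group (26.1%). The part of adipocytes in the Cyp4b1 values was not tested.

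Among members that work mainly outside hepatocytes, 7 of 12 were tested: 3 fell in the free-drug group, and 1 rose and 1 fell in the nanocluster group, with 4 higher there than in the free-drug group. The others did not pass, and beside the 20.9% and 12.7% of all genes that rose and fell in the nanocluster group these counts there say nothing particular about these members. Cyp2s1 was even across libraries, at 57.1, 52.0 and 55.0 FPKM in Control, 46.5, 42.0 and 47.8 FPKM in the free-drug group and 40.3, 40.8 and 39.9 FPKM in the nanocluster group. Small as they were, the falls of 0.27 ± 0.06 and 0.43 ± 0.06 passed, the former not without free-drug 2 or Control 3 (adjusted p = 0.0646 and 0.0717). Cyp4v3, the mouse counterpart of a human gene for an eye disorder of fatty acid oxidation, was at 14.1 to 17.5 FPKM in all 9 libraries. It passed in no comparison of the main fit, though without Control 1 it fell by 0.19 in the free-drug and by 0.23 in the nanocluster group. The nanocluster fall also passed under both other scalings (limma adjusted p = 0.00495 and 0.0441). Cyp2r1, a vitamin D 25-hydroxylase, was at 0.674 to 1.58 FPKM and passed in no comparison of the main fit. Without Control 1 or Control 2 it was lower in the nanocluster group than in the free-drug group (adjusted p = 0.0424 and 0.0429). That difference also passed with a pseudocount of 1, median-of-ratios scaling, a fit of these groups alone or plain moderation (limma adjusted p 0.0317 to 0.0478). Its free-drug rise passed under plain moderation (0.0324).

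The members were next set against the hepatocyte genes in the same library. For each member, the mean log2(FPKM + 0.5) of the 32 hepatocyte genes was subtracted; that mean was 5.40, 3.95 and 4.72 in Control, 5.46, 5.49 and 5.53 in the free-drug group and 1.58, 1.91 and 1.96 in the nanocluster group. This is a description with no test. Between the free-drug group and Control, 17 of 45 members were apart upward, against 1.26% of all genes, and 13 downward, against 36.1%. The subtracted mean was 0.805 higher in the free-drug group than in Control, which moves every gene down in this measure. Those shares are therefore no baseline for hepatocyte genes, and the member counts are not read against them. The largest upward differences in this measure were 2.93 for Cyp2a5, 2.62 for Cyp1a2, 1.89 for Cyp2f2, 1.81 for Cyp4a12a, 1.56 for Cyp4f14 and 1.30 for Cyp2j5. Cyp2e1 was apart by 0.88, whereas Cyp3a11 overlapped at 0.19. Without the subtraction the levels of both genes were apart upward, and neither difference passed. Cyp4a14 and Cyp1b1 were apart downward, by -2.05 and -2.58. In the nanocluster group 98.7% of all genes were apart upward from Control on this measure, so its count there is not read.

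**Figure D5:**
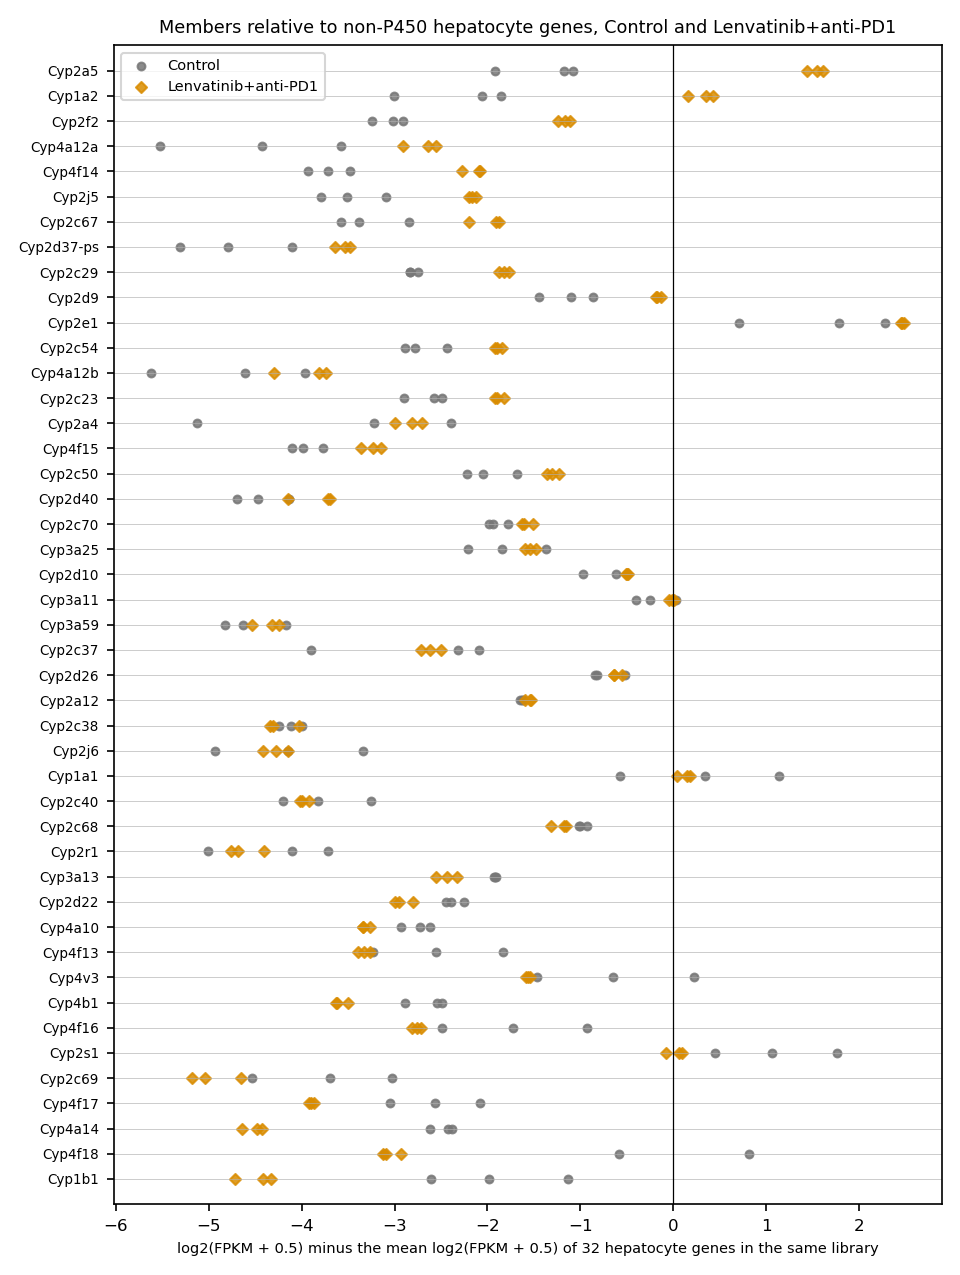
The x axis gives each member's log2(FPKM + 0.5) minus the mean of 32 hepatocyte genes in the same library. Circles are the 3 Control and diamonds the 3 free-drug libraries. Rows are the 45 tested members, ordered by the difference of group means. At the top, Cyp2a5, Cyp1a2 and Cyp2f2 have all diamonds right of all circles, and at the bottom Cyp1b1 and Cyp4a14 have them all to the left.

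Within Control, 32 of the 45 tested members were highest in Control 1 and 7 were lowest there. Of the 45, 11 were at least 4-fold higher in Control 1 than in Control 2, as Cyp2e1 was, and 11 lay within 1.5-fold. The median FPKM of the 32 hepatocyte genes was 3.06-fold higher in Control 1 than in Control 2. Cyp2a5 and Cyp1a2 differed by 1.57-fold and 1.27-fold, and Cyp4a12a was lower in Control 1, at 0.528 of Control 2.

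The partners of P450 enzymes were described as well. Por, the oxidoreductase that feeds electrons to all microsomal members, was at 87.3, 70.2 and 77.0 FPKM in Control, 31.8, 33.9 and 33.1 FPKM in the free-drug group and 36.4, 44.4 and 42.2 FPKM in the nanocluster group. It fell by 1.23 in the free-drug group and by 0.92 in the nanocluster group, so in the free-drug group it was lower where 21 members were higher. Of 6 tested electron partners and P450-binding proteins, 2 rose and 2 fell in the free-drug group, and 3 fell in the nanocluster group. Over all genes tested, 13.8% rose and 9.87% fell in the free-drug group, and 12.7% fell in the nanocluster group. Pgrmc1, a haem protein that binds P450s, rose by 0.44 in the free-drug group and fell by 0.51 in the nanocluster group.

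Haem supply was described over 8 synthesis genes, of which 2 rose in the free-drug group, and 1 rose and 3 fell in the nanocluster group. Over all genes tested, 13.8% rose in the free-drug group, and 20.9% rose and 12.7% fell in the nanocluster group. Alas1, the rate-limiting enzyme, was at 12.8 to 13.0 FPKM in Control, 16.0 to 18.6 FPKM in the free-drug group and 6.93 to 8.81 FPKM in the nanocluster group; it rose by 0.41 and fell by 0.66. Hmox1, which breaks haem down, was at 43.6, 96.5 and 89.7 FPKM in Control, 43.8, 44.2 and 50.9 FPKM in the free-drug group and 441, 367 and 419 FPKM in the nanocluster group, a rise of 2.49 in the latter.

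Of 20 tested receptors and factors that govern P450 genes, 3 rose and 3 fell in the free-drug group, and 1 rose and 8 fell in the nanocluster group. Over all genes tested, 13.8% rose and 9.87% fell in the free-drug group, and 20.9% and 12.7% in the nanocluster group. The free-drug counts were near those shares. Nr1i3, which encodes CAR, was at 3.67, 1.27 and 2.04 FPKM in Control, 3.36 to 3.74 FPKM in the free-drug group and 0.213 to 0.491 FPKM in the nanocluster group. Nr1i2, which encodes PXR, was at 3.42, 1.25 and 2.41 FPKM in Control, 2.11 to 2.21 FPKM in the free-drug group and 0 to 0.0834 FPKM in the nanocluster group. Neither passed in the free-drug group (0.62 and -0.03), and they fell by 1.72 and 2.33 in the nanocluster group. Hnf4a, a master factor of hepatocytes, stayed at 25.2 to 29.2 FPKM in all libraries and passed in no comparison. The bile acid receptor gene Nr1h4, its target Nr0b2 and the clock factor gene Dbp were the 3 that rose in the free-drug group, by 1.01, 1.93 and 1.62.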

How the data were processed

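Mouse tumours were profiled by RNA sequencing in 9 libraries, 3 per group. Per the labels' protocols, poly(A) RNA was made into dUTP strand-marked libraries and read in pairs of 150 bases. The authors deposited FPKM per gene, in a table presented as raw counts; fastp, StringTie and edgeR are listed, with no version, in the submitters' processing notes. For the aligner and build the entry is: not given in the sources used here. The only coordinates printed are those of the RefSeq windows.

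FPKM were used as deposited, without scaling. limma 3.58.1 in R 4.3.3 was fitted to log2(FPKM + 0.5) of all 9 libraries by group (6 residual degrees of freedom), with a mean-variance trend and robust moderation, for the 15353 genes averaging 0.5 FPKM or more; p-values were adjusted by Benjamini-Hochberg over all of them and read at 0.05. The fit was tested on simulated data. The P450 members, gene lists, tests and alternatives were chosen with earlier results of these data known, so lists give no independent support. Of the tested members 35 came under the naming rule: the 12 highest by mean FPKM, up to 8 largest rises and falls per comparison, and a fixed set with textbook roles, which also holds members below the filter. Outside it, Cyp2c40, Cyp4a12b and Cyp3a41b are named for shared sequence and Cyp2c55 after its values were seen. Non-members are examples from the lists. Of 218 list symbols, 216 were found. Shared 150-base words were counted between GENCODE M21 transcripts; 26 tested members shared none, and 5 shared over 10%. Alternatives were other pseudocounts, filters, scalings, moderation, fits of 2 groups, a replicate block, libraries 1 and 2 alone, and leaving out each library. Depth is unknown, so no counting intervals are given.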

Additional observations from a re-analysis of the deposited data

How the results depend on the processing

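Main counts of members stayed within 1.5 times under other pseudocounts, a filter at 1 FPKM, 2 other scalings and plain moderation. The count that fell in the free-drug group against Control was 5, and became 3 without a filter on low values and 2 in a fit of those groups alone; the cause was not tested. With libraries 1 and 2 alone, where fewer samples leave 3 residual degrees of freedom, the counts higher and lower were 1 and 0 for free drug against Control, 0 and 1 for nanocluster against Control, and 0 and 17 between the treatments. Leaving out 1 library at a time gave 11 to 29 higher and 1 to 7 lower, 1 to 1 and 24 to 33, and 3 to 4 and 31 to 37 in the same order. The labels do not say whether replicate numbers pair the samples. Same-numbered deviations correlated at 0.079, -0.020 and 0.007, at -0.165, -0.139 and 0.039, and at -0.217, -0.248 and 0.041 in the 3 comparisons. With 3 libraries per group these values cannot decide whether a number marks a shared batch. With a replicate block the counts were 18 and 3, 1 and 30, and 3 and 32.

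Over the named genes' 105 differences, 1771 alternative values kept direction and side of the threshold, 175 lost and 32 gained the call, and 17 changed sign, none of them past the threshold. Cyp4f13, free drug minus Control, was -0.0151 and -0.0237 under the other scalings, and Cyp2r1, nanocluster minus Control, -0.0669 and -0.012. Cyp4v3 was 0.0014 between the treatments with libraries 1 and 2. The other changes of sign came with 1 library left out, and the ranges over those fits follow. Free drug minus Control ran from -0.4333 to 0.092 for Cyp4b1, -0.0604 to 0.5686 for Cyp2d22, -0.0915 to 0.6419 for Cyp3a13 and -0.0613 to 0.5114 for Cyp4a10. Nanocluster minus Control ran from -0.2976 to 0.1967 for Cyp1a1, -0.5484 to 0.0675 for Cyp1b1, -0.3313 to 0.9127 for Cyp4f18, -0.076 to 0.1176 for Cyp2r1 and -0.56 to 0.1734 for Cyp3a13. Nanocluster minus free drug ran from -0.0656 to 0.0767 for Cyp4f17. Depth is unknown, so no floor of detection is given for members listed at 0.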

Other observations

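Members below the filter showed levels of their own, given here as values with no test. Cyp2b10, the textbook CAR target, was at 0.656, 0.160 and 0.405 FPKM in Control, 0.0873 to 0.181 FPKM in the free-drug group and 0.0693 FPKM or less in the nanocluster group. Cyp2b9, female-biased in liver, was at 1.04, 0.0395 and 0.478 FPKM in Control and 0.133 to 0.224 FPKM in the free-drug group. Cyp2c55, another gene that CAR and PXR ligands induce, was at 0.0238 to 0.113 FPKM in Control and 0.531 to 0.621 FPKM in the free-drug group; it was chosen from the induced list after its values were seen.

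P450 genes of other families were also read, 18 of 19 listed symbols being found and 12 tested: 2 rose and 1 fell in the free-drug group, and 2 rose and 5 fell in the nanocluster group. Over all genes tested, 13.8% rose and 9.87% fell in the free-drug group, and 20.9% and 12.7% in the nanocluster group. Cyp51, the sterol demethylase of cholesterol synthesis, rose by 0.84 in the free-drug group and by 0.25 in the nanocluster group. Cyp26b1, which breaks down retinoic acid, was at 0.267, 0.436 and 0.647 FPKM in Control and 2.33 to 2.69 FPKM in the nanocluster group, a rise of 1.67. Cyp7a1 and Cyp8b1, the bile acid enzymes, fell by 1.40 and 2.22 in the nanocluster group. Cyp7b1, an oxysterol hydroxylase, rose by 0.66 in the free-drug group.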
